A study of Mus with 12 samples.

Results

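The difference between Apobec1 knockout (KO) and wild type (WT) kidneys that was common to saline and cisplatin treatment was measured in all 12 arrays of the series, the 6 arrays labelled KO against the 6 labelled WT. Treatment entered an additive model as a block, so that each gene had 1 genotype difference averaged over both treatments. All 19505 genes with a symbol on the array were tested, with 1 probe set for each gene. Each array measured kidney RNA of a male C57Bl/6j mouse, 6 months old, on a Clariom S array. The groups, of 3 arrays each, were WT control (wild type, saline), KO control (Apobec1 KO, saline), WT AKI (wild type, cisplatin at 15 mg/kg) and KO AKI (Apobec1 KO, cisplatin at 15 mg/kg), where AKI stands for acute kidney injury, and the kidneys were taken at 3 days. The KO mice were homozygous, made elsewhere and backcrossed to the C57BL6J strain, and no other allele or transgene was named for any group. The WT mice were bought from a vendor and the KO mice were raised in house, so genotype and the place where the mice were raised cannot be told apart.

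APOBEC1 is a cytidine deaminase that edits RNA, best known for the C-to-U change in apolipoprotein B mRNA that gives the short form of that protein in the small intestine and, in mice, in the liver. It works with RNA-binding partners such as A1CF and RBM47, and it also binds AU-rich sequences in the untranslated ends of messages, where it can alter their stability. The proximal tubule, the part of the nephron that takes up most of the filtered solutes and also cisplatin, makes up much of the kidney's RNA.

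Markers of the labelled tissue were present, with 13 of 14 proximal tubule markers above background on all 12 arrays. Background is the signal under which 95% of the 23 antigenomic control probe sets of an array lay. KO AKI replicate 2 stood apart from the other arrays. Its mean log2 signal over the 14 proximal tubule markers was 11.2, against 15.6 and 14.7 on the other KO AKI arrays and 16.1 to 17.0 on the other 9. Arrays of the KO AKI group correlated with each other at 0.962 to 0.986 over all genes, and arrays within the other groups at 0.990 to 0.993. Some values are given also without this array, a choice made after its values were seen.

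Apobec1 itself gave log2 signals of 7.18, 6.63 and 7.33 in WT control, 7.58, 7.50 and 7.66 in KO control, 8.97, 8.56 and 8.38 in WT AKI and 9.75, 7.33 and 8.48 in KO AKI. The KO and WT arrays overlapped after cisplatin, and in saline the arrays labelled KO were the higher ones. The additive log2 difference was 0.21 (standard error 0.31, adjusted p = 0.852 from limma, exact permutation p = 0.62). Without KO AKI replicate 1 the difference was -0.029, the opposite sign. Which part of the transcript the probe set reads is not given in the sources used here, and a probe set outside the disrupted part checks nothing about the labels. According to the paper, the disruption was checked by genotype and by mRNA level. It also reports no APOBEC1 staining in kidneys of KO mice after cisplatin.

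Only 12 of the 19505 genes differed between the genotypes at an adjusted p under 0.05 in limma's additive model, which is 0.0615% of the genes tested. Jchain and Rdh10 were higher in KO kidneys (2 genes, 0.0103%) and the other 10 were lower (0.0513%). The lower genes were Entpd4, Slc22a7, Lpl, Dera, Arsb, Myo5a, Akr1c18, Xpnpep1, Kyat1 and Bcat1. The log2 differences of the 12 genes had sizes of 0.97 to 5.69, with a median of 1.41. All 12 had the same sign in saline and in cisplatin, and for 11 of them (0.0564% of all genes) the 3 KO arrays lay on 1 side of the 3 WT arrays in saline and again in cisplatin. The exception was Bcat1, whose groups overlapped after cisplatin. Over all genes, 1.63% separated the same way in both treatments. The 12 genes were called on these same arrays, so their equal signs and separation describe them and are no further support. Without KO AKI replicate 2 all 12 remained among 18 calls, and without KO AKI replicate 1 they remained among 28. Leaving out any other array lost 2 to 7 of the 12 calls.

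**Figure D1:**
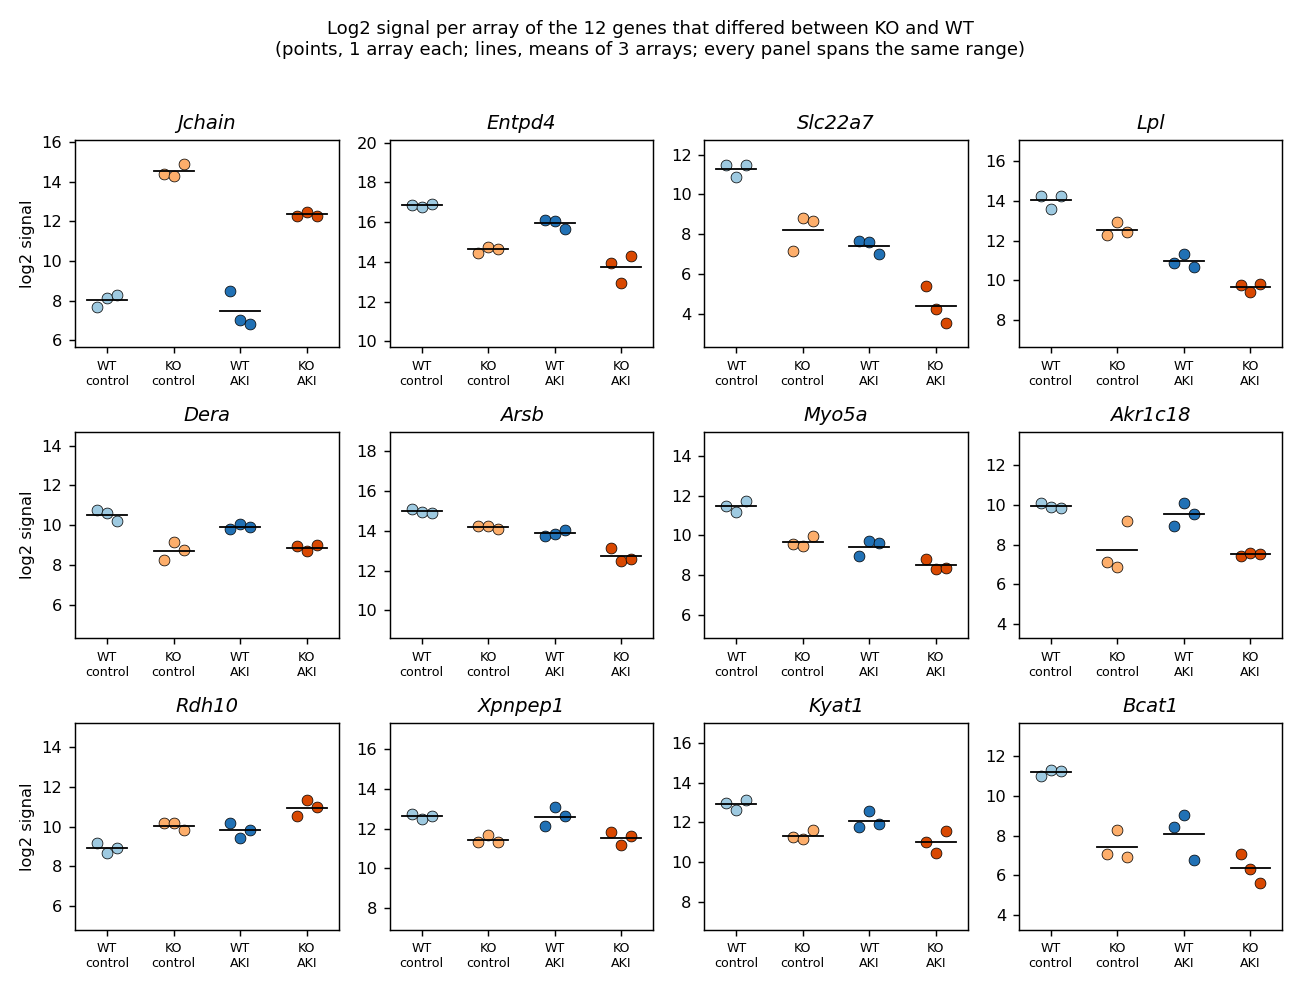
Log2 signal (vertical axis) of the 12 genes that passed the test, 1 panel for each gene, with 1 point for each array and a line at the mean of 3 arrays in WT control, KO control, WT AKI and KO AKI. All panels span the same number of log2 units, and the KO and WT points overlap in 1 place, Bcat1 after cisplatin.

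The difference of Jchain exceeded that of every other gene. Jchain encodes the joining chain that links immunoglobulin A and M subunits into polymers. Its log2 signals were 7.67, 8.13 and 8.31 in WT control against 14.40, 14.29 and 14.90 in KO control. After cisplatin they were 8.51, 7.05 and 6.84 in WT AKI against 12.28, 12.46 and 12.29 in KO AKI. Every KO array lay far above every WT array in both treatments. The additive difference was 5.69 on the log2 scale (standard error 0.33, adjusted p = 1.09e-06 from limma), a 51.5-fold higher signal in KO kidneys. The difference was 6.49 in saline and 4.88 after cisplatin, and the gap between these had an unadjusted interaction p of 0.00665 and an adjusted p of 0.314 from limma. In a fit to the saline arrays alone and in one to the cisplatin arrays alone, which share no mice, Jchain ranked 1 of all genes both times.

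Of the 16 measured markers of plasma and B cells, Jchain alone passed the test, and the median additive log2 difference of the list was 0.11, beside -0.0049 over all 19505 genes. Of the others, 13 markers lay above background on 0 arrays, among them Mzb1, a chaperone of immunoglobulin secreting cells, and Pou2af1, a coactivator of B cell genes. Mzb1 differed by 0.29 (adjusted p = 0.576 from limma) and Pou2af1 by 0.48 (adjusted p = 0.487). Xbp1, a secretory regulator that other kidney cells also use, was above background on all arrays and differed by 0.23 (adjusted p = 0.558). The mean log2 signal of the list ran from 4.90 to 4.93 in WT control, 5.39 to 5.47 in KO control, 4.95 to 5.09 in WT AKI and 5.35 to 5.57 in KO AKI, and these means include Jchain. A change in the number of cells of a type and a change in the RNA of each cell cannot be told apart in whole kidney RNA.

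Entpd4 and Dera, genes of nucleotide and deoxyribose phosphate breakdown, were lower in KO kidneys. Entpd4 encodes a nucleoside diphosphatase of the Golgi apparatus and lysosomes. It gave 16.87, 16.76 and 16.90 in WT control against 14.44, 14.76 and 14.68 in KO control. After cisplatin it gave 16.13, 16.04 and 15.66 in WT AKI against 13.96, 12.94 and 14.28 in KO AKI, without overlap in either treatment. The log2 difference was -2.22 in saline and -2.21 after cisplatin, and the additive difference was -2.22 (standard error 0.20, adjusted p = 0.000179 from limma), a 4.65-fold lower signal. The other probe set of Entpd4 gave -2.06 (standard error 0.15) and separated the genotypes in both treatments too. The mouse genome holds a near-identical copy, Entpd4b, that had no probe set of its own among the named genes, so the split of the signal between the copies is uncertain.

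Dera encodes deoxyribose phosphate aldolase, which feeds the sugar of broken down nucleosides into central metabolism. Its signals were 10.74, 10.62 and 10.22 in WT control and 8.26, 9.14 and 8.74 in KO control. They were 9.83, 10.07 and 9.89 in WT AKI and 8.94, 8.68 and 8.99 in KO AKI. The additive difference was -1.44 (standard error 0.19, adjusted p = 0.00898 from limma), with -1.81 in saline and -1.06 after cisplatin. Both sets of KO arrays lay wholly below their WT arrays. Among the 17 measured genes of the pathway, a list written around these called genes, 2 passed the test, both lower, beside 0.0615% of all genes, and the median difference was -0.11. The count is therefore no result about the pathway. Pnp, a purine nucleoside phosphorylase, separated in both treatments but missed the test, at 0.74 (adjusted p = 0.135).

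Slc22a7, an organic anion transporter, was lower in KO kidneys. Its signals were 11.49, 10.90 and 11.49 in WT control against 7.15, 8.79 and 8.65 in KO control. After cisplatin they were 7.67, 7.59 and 6.99 in WT AKI against 5.41, 4.22 and 3.55 in KO AKI, where it was above background on 0 of 3 arrays. The additive difference was -3.06 (standard error 0.32, adjusted p = 0.00101 from limma). The saline difference of -3.10 was an 8.57-fold lower signal, while after cisplatin the signal was at least 2.04-fold lower, the mean of WT AKI against the mean background of the KO AKI arrays. Cisplatin lowered Slc22a7 in both genotypes, by 3.88 in WT and by 3.81 in KO on the log2 scale (adjusted p = 0.00022 and 8.56e-05 from limma), in KO to signals below background.

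Of 20 measured organic anion and cation transporters, 1 passed the test, Slc22a7, while the differences of 18 were below 0 and those of 2 above. The median difference of the 20 was -0.10 in saline and -1.56 after cisplatin, or -0.82 after cisplatin without KO AKI replicate 2. Slc22a13, a urate and nicotinate transporter, separated in both treatments with an additive difference of -1.34 (adjusted p = 0.185), and Abcc4, an efflux pump, did so with 0.99 (adjusted p = 0.276). Slc22a2, the organic cation transporter that carries cisplatin into proximal tubule cells, differed by -1.01 (adjusted p = 0.501), and leaving out KO AKI replicate 2 gave -0.44. Slc22a6, the main organic anion transporter of the basolateral membrane, differed by -0.50 (adjusted p = 0.688), a value that became -0.06 without that array. Proximal tubule markers moved with these genes after cisplatin: the median difference of the 14 markers was 0.05 in saline and -2.21 after cisplatin, or -0.88 without that array, and their part in the transporter values was not tested.

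Lpl encodes lipoprotein lipase, which releases fatty acids from circulating triglyceride. Its signals were 14.27, 13.59 and 14.25 in WT control, 12.28, 12.93 and 12.46 in KO control, 10.87, 11.34 and 10.67 in WT AKI and 9.77, 9.44 and 9.83 in KO AKI. The KO arrays lay below the WT arrays in both treatments, and the cisplatin arrays of both genotypes lay below all saline arrays. The additive genotype difference was -1.38 (standard error 0.18, adjusted p = 0.00891 from limma), a 2.60-fold lower signal. Fat cells also express Lpl: the fat cell marker Adipoq, the hormone adiponectin, differed by -1.75 (adjusted p = 0.262) with signals above background on 4 of 12 arrays, and the 7 measured fat cell markers had a median difference of -1.06 in saline and 0.13 after cisplatin, while 0 of 7 passed the test. Their part in the Lpl result was not tested.

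Of 21 measured genes of lipoprotein assembly and lipid handling, Lpl alone passed the test, and 15 of the 21 were higher. Without KO AKI replicate 2, 11 were higher and 10 lower, and the median of the list went from 0.37 to 0.06. Apoe, the apolipoprotein of remnant particles, separated upward in both treatments with 1.24 (adjusted p = 0.250). Fabp3, a fatty acid binding protein, separated downward with -1.28 (adjusted p = 0.340), of which -0.31 was in saline and -2.25 after cisplatin. Without KO AKI replicate 2 the latter was -1.57. Acsl4 and Acsl5, which activate fatty acids, differed by -0.11 each in saline and by 1.58 and 1.13 after cisplatin, and neither passed the additive test (adjusted p = 0.486 and 0.442). Apob, whose message APOBEC1 edits, differed by 0.54 (adjusted p = 0.378), a value for signal that says nothing of its editing.

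The other 7 genes stood nearer to the threshold. Arsb, a lysosomal sulfatase of dermatan and chondroitin sulfate, differed by -0.97 (standard error 0.15, adjusted p = 0.0260 from limma). Its signals were 14.91 to 15.10 in WT control, 14.07 to 14.25 in KO control, 13.73 to 14.03 in WT AKI and 12.48 to 13.13 in KO AKI. The ranges did not overlap within a treatment, although the KO control range lay above that of WT AKI.

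Myo5a, a motor that carries vesicles along actin and the gene of the dilute coat colour, differed by -1.37 (standard error 0.21, adjusted p = 0.0260), with -1.81 in saline and -0.94 after cisplatin. Of 12 measured class V myosins and partners it alone passed the test, and the list's median was -0.09. Mlph, which links Myo5a to melanosomes in pigment cells, gave 0.99 (adjusted p = 0.353) and was above background on 2 of 12 arrays, and Rab27a, the GTPase of the same complex, gave -0.21 (adjusted p = 0.706).

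Akr1c18, a hydroxysteroid dehydrogenase that inactivates progesterone, differed by -2.12 (standard error 0.32, adjusted p = 0.0260). Its KO control signals of 7.11, 6.86 and 9.18 were uneven, against 10.08, 9.91 and 9.84 in WT control, while KO AKI gave 7.44, 7.57 and 7.55 against 8.96, 10.11 and 9.53 in WT AKI. Within saline, KO control replicate 3 lay nearest to the WT control arrays, without reaching them. Rdh10, a retinol dehydrogenase in the path to retinoic acid, was the other higher gene, with 1.12 (standard error 0.17, adjusted p = 0.0260), 1.11 in saline and 1.14 after cisplatin. Its signals were 8.69 to 9.19 in WT control, 9.80 to 10.19 in KO control, 9.43 to 10.17 in WT AKI and 10.54 to 11.32 in KO AKI.

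Xpnpep1, an aminopeptidase for peptides with proline in the next position, differed by -1.13 (standard error 0.18, adjusted p = 0.0260), with 12.51 to 12.76 in WT control, 11.32 to 11.67 in KO control, 12.12 to 13.08 in WT AKI and 11.16 to 11.85 in KO AKI. It was 1 of the 3 called genes that did not pass the test for cisplatin, with an additive cisplatin difference of 0.04 (adjusted p = 0.886 from limma). Kyat1, a kynurenine aminotransferase that also cleaves cysteine conjugates, differed by -1.32 (standard error 0.21, adjusted p = 0.0260), with -1.56 in saline and -1.08 after cisplatin.

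Bcat1, the cytosolic aminotransferase of branched-chain amino acids, had signals of 10.98, 11.29 and 11.26 in WT control and 7.05, 8.29 and 6.94 in KO control. After cisplatin these were 8.43, 9.04 and 6.75 in WT AKI and 7.07, 6.33 and 5.63 in KO AKI. The saline groups were far apart, while WT AKI replicate 3 lay below KO AKI replicate 1. KO AKI replicates 2 and 3 lay below the background of their arrays (6.52 and 6.38), so the Bcat1 difference after cisplatin is read partly within background. The additive difference was -2.74 (standard error 0.45, adjusted p = 0.0408 from limma), with -3.75 in saline and -1.73 after cisplatin, and the exact permutation p was 0.01. Of 19 measured genes of branched-chain amino acid breakdown Bcat1 alone passed the test, and the list's median was 0.15 in saline and -0.97 after cisplatin, or -0.45 after cisplatin without KO AKI replicate 2. The mean log2 signal of the list was 9.42 on that array against 10.9 and 10.8 on the other KO AKI arrays. Bcat2, the mitochondrial partner enzyme, gave -0.32 (adjusted p = 0.628), or -0.16 without it.

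Of the 12 genes, 5 (Jchain, Entpd4, Slc22a7, Lpl and Dera) passed the test without any 1 of the 12 arrays and under the 8 other settings of the processing, with a highest adjusted p of 0.0432. The other 7 passed in 2 to 4 of the 12 fits that left out an array. All 7 calls were lost without WT control replicate 1, 2 or 3, KO control replicate 1 or 2, or WT AKI replicate 2, 6 were lost without WT AKI replicate 3 or KO AKI replicate 3, 5 without KO control replicate 3 and 2 without WT AKI replicate 1.

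**Figure D2:**
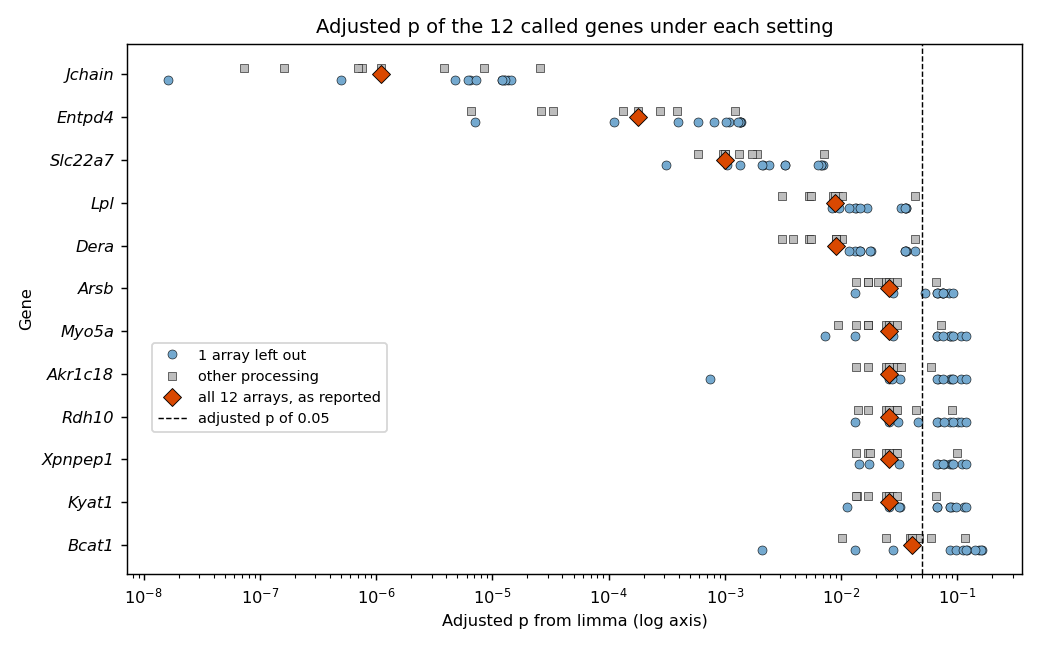
Adjusted p from limma (horizontal log axis) of each of the 12 genes (vertical axis), with diamonds for all 12 arrays, circles for each fit without 1 array, squares for other processing and a dashed line at 0.05. The symbols of Jchain, Entpd4, Slc22a7, Lpl and Dera all lie left of the line, and the highest p of the other 7 genes reaches 0.162.

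The genotype difference of the 12 genes was smaller after cisplatin than in saline for 10 of them, beside 8103 of all 19505 genes. Among the 10, Entpd4 gave -2.22 and -2.21, and the KO AKI signals of Slc22a7 lay wholly and those of Bcat1 partly below background. The interaction of genotype and treatment had an unadjusted p under 0.05 for 4 of the 12, Jchain, Dera, Myo5a and Bcat1, beside 10.4% of all genes, and an adjusted p under 0.05 for 0 of 12 (0.0308% of all genes), the lowest being 0.314. In a model with separate differences for each treatment, 6 of the 12 were called in saline (0.0513% of all genes were), 5 after cisplatin (0.487%) and 3 in both, Jchain, Entpd4 and Slc22a7. Cisplatin itself moved 9 of the 12 genes, 1 up and 8 down, in the additive model, which is 75% of them beside 37.4% of all genes.

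Over all genes, the genotype difference in saline and that after cisplatin, which share no arrays, had little in common. The correlation across the 19505 genes was 0.024 (Pearson) and 0.025 (Spearman), and 51.0% of genes had the same sign in both. Genes are not independent replicates, so these are descriptions. KO and WT arrays separated the same way in both treatments for 317 genes (1.63%), 146 with KO higher (0.749%) and 171 with KO lower (0.877%), and in opposite ways for 251 genes (1.29%). Among the 7432 genes above background on all arrays these shares were 2.68% and 1.67%, and among the 9036 genes above background on no array 0.686% and 0.775%.

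**Figure D3:**
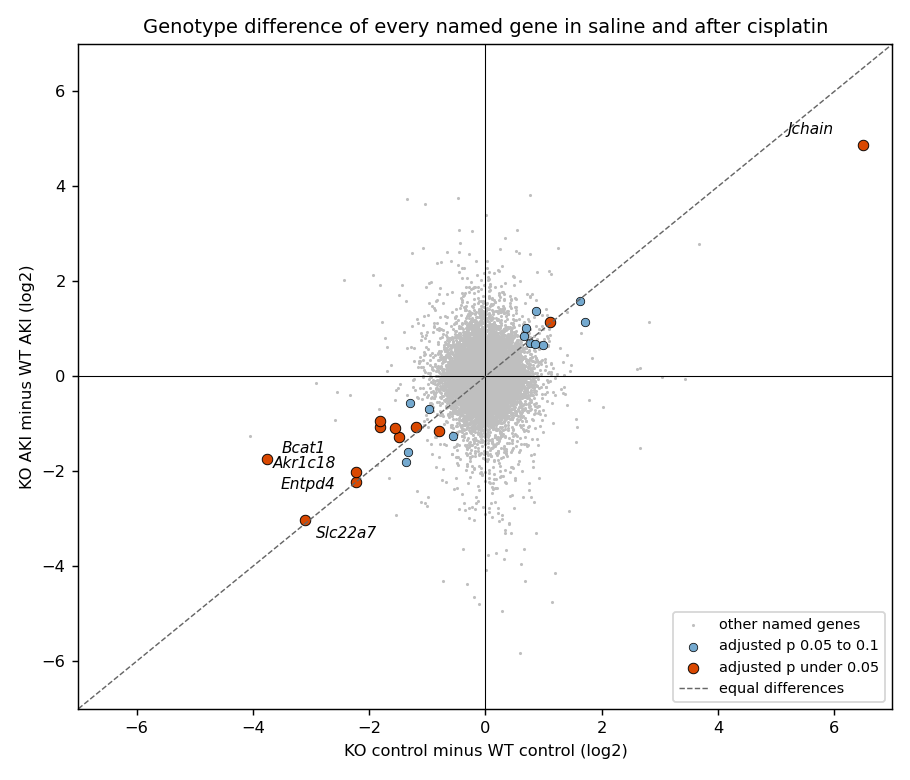
KO minus WT log2 difference of each of the 19505 named genes after cisplatin (vertical axis) against that in saline (horizontal axis), with the 12 called genes in red, the 13 genes with an adjusted p of 0.05 to 0.1 in blue and a dashed line where both differences are equal. The cloud of all genes follows the axes rather than the line, with a correlation of 0.024. The coloured genes, chosen by their difference over both treatments, lie in the quadrants of equal sign.

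Genes chosen in 1 treatment and measured in the other gave a similar account. Of the 100 genes with the smallest p in saline alone, 55 differed in the same direction after cisplatin, with a median difference of 0.10 in that direction beside 1.20 in saline. Of the 100 from cisplatin alone, 51 did so in saline, with medians of 0.01 and 1.40. In the other treatment, KO and WT arrays separated in that same direction for 19 of the saline genes and 17 of the cisplatin genes. In either direction, 17.2% of all genes separated after cisplatin and 14.6% in saline. The share of all genes that differed by over 1 log2 unit was not counted in either treatment. After cisplatin, 23 of the saline genes differed by over 1 log2 unit in the same direction. Besides called genes these included the glutathione transferase Gsta2, the quinone reductase Nqo1, the clock genes Arntl, Dbp and Usp2, and the transporter Slc22a26. Of the cisplatin genes 7 did so in saline, Jchain, Entpd4, Slc22a7, Lpl, Dera, Akr1c18 and Acsm3, a medium-chain acyl-CoA synthetase that gave -1.10 in saline and -2.65 after cisplatin. Without KO AKI replicate 2, the differences after cisplatin were 0.88 for Gsta2, 0.55 for Arntl, -0.50 for Dbp and -0.82 for Usp2. Those of Nqo1, Slc22a26 and Acsm3 were 1.13, -2.16 and -2.27 without that array.

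A further 13 genes had an adjusted p between 0.05 and 0.1, a threshold added after the count at 0.05 was seen, for 25 genes in all (0.128% of those tested), 10 higher (0.0513%) and 15 lower (0.0769%). Counting genes with an unadjusted p under 0.01 and more than a 2-fold difference gave 85 (0.436%), 31 higher (0.159%) and 54 lower (0.277%). All 13 genes with an adjusted p of 0.05 to 0.1 separated the genotypes in both treatments, 8 with KO higher and 5 with KO lower. Over all genes 1.63% did so, but the 13 were chosen on these same arrays, so their separation is no further support. Gsta2 gave 12.62 to 13.36 in WT control, 14.16 to 15.31 in KO control, 16.26 to 17.17 in WT AKI and 17.26 to 18.40 in KO AKI, an additive difference of 1.42 (adjusted p = 0.0735 from limma). Gm10639, a predicted gene on the same chromosome, 9, gave 1.60 with the same adjusted p. Gsta genes are near copies of each other, so signals of the family can be shared between probe sets. Ethe1, a mitochondrial enzyme of sulfide oxidation, gave 0.77 (adjusted p = 0.0784), and Emp1, an epithelial membrane protein, 1.12 (adjusted p = 0.0735). Amdhd2, a deacetylase of amino sugars, gave -0.91, and the small GTPase Rab34 -0.83. Klrb1c, Lsm2 and Amotl1 were above background on 0 or 1 of 12 arrays and Styk1 on 3, all of them KO AKI, and sizes there were read wholly or partly within background.

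Nat8f3 and Nat8f6 belong to a cluster of N-acetyltransferase genes on chromosome 6, whose member Nat8 acetylates cysteine conjugates. Both were lower in KO arrays of both treatments, with additive differences of -1.46 and -1.59 (adjusted p = 0.0735 each). Nat8f6 gave 9.81 to 10.04 in WT control, 8.09 to 9.09 in KO control, 7.57 to 7.98 in WT AKI and 4.80 to 6.97 in KO AKI. Of the 8 measured genes of the cluster 7 were lower and 4 separated downward in both treatments (0.877% of all genes did), with Nat8f7 at -1.86 (adjusted p = 0.250) and Nat8 at -0.96 (adjusted p = 0.345) as the other pair. The genes of the cluster are close copies of each other, and their signals cannot be taken as separate measurements. They were singled out after their values were seen.

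Position relative to Apobec1 was a property that the test for genotype differences did not use. Dera and Bcat1 lie on chromosome 6, as Apobec1 does, with starts 15.2 and 22.4 Mb from its own in the assembly GRCm38.p6. The other 10 called genes lie on other chromosomes: Akr1c18 and Arsb are on 13, Jchain on 5, Entpd4 on 14, Slc22a7 on 17, Lpl on 8, Myo5a on 9, Rdh10 on 1, Xpnpep1 on 19 and Kyat1 on 2. Within 10 Mb of Apobec1, 0 of 253 genes were called in limma's additive model, with 36 at an unadjusted p under 0.05 (14.2%, beside 9.92% on other chromosomes). Between 10 and 25 Mb, 2 of 151 were called (1.32%), farther on the chromosome 0 of 646, and on other chromosomes 10 of 18454 (0.0542%).

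Separation the same way in both treatments was seen for 9 of the 253 genes within 10 Mb (3.56%), 5 of the 151 between 10 and 25 Mb (3.31%), 12 of 646 farther on the chromosome (1.86%) and 291 of 18454 elsewhere (1.58%). Opposite separation was seen for 1.19%, 0.662%, 2.32% and 1.26% in the same order. Over whole chromosomes, separation the same way was seen for 2.47% of genes on chromosome 6. Chromosomes 16 and 18 had more, at 2.76% and 2.5%, and every other chromosome had less. At an adjusted p under 0.1 in limma there were 7 genes on chromosome 6 and 0 on chromosomes 16 and 18. By band these were 2 of 253 within 10 Mb (0.791%), 3 of 151 between 10 and 25 Mb (1.99%) and 2 of 646 farther on (0.31%). On other chromosomes there were 18 of 18454 (0.0975%). The 3 genes between 10 and 25 Mb were Bcat1, Dera and Emp1, and the 2 farther on were Nat8f3 and Nat8f6. The 2 genes within 10 Mb with an adjusted p between 0.05 and 0.1 were Styk1, a receptor-like kinase, higher in KO at a distance of 8.72 Mb, and Klrb1c, a receptor of natural killer cells, lower in KO at 6.20 Mb. The counts are small, neighbouring genes are not independent, and the difference between the bands was not tested.

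**Figure D4:**
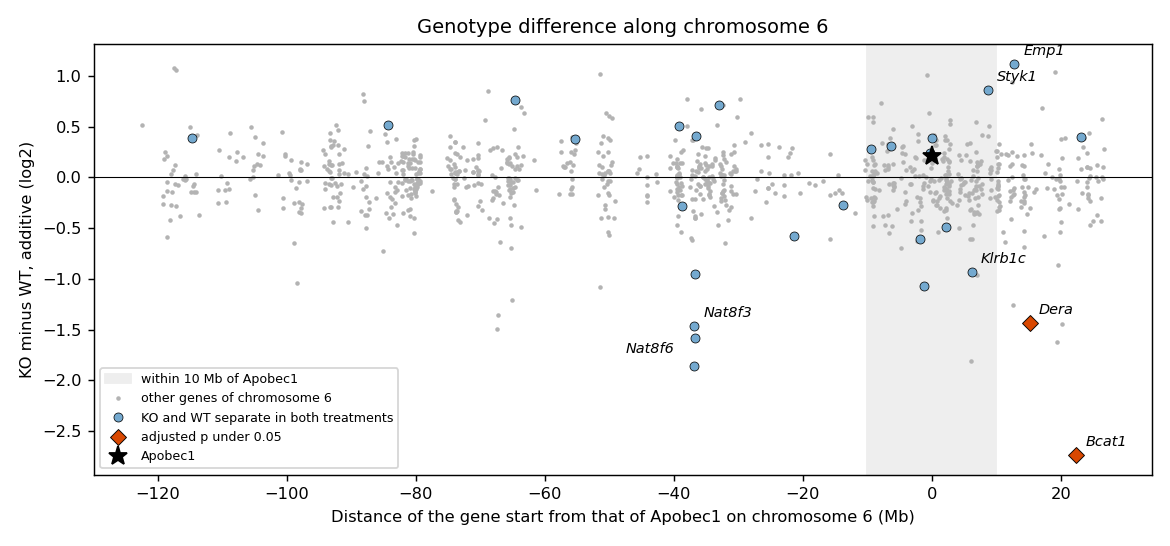
Additive KO minus WT log2 difference (vertical axis) of each measured gene of chromosome 6 against the distance of its start from that of Apobec1 in Mb (horizontal axis), with the band within 10 Mb shaded. Diamonds mark Dera and Bcat1, which passed the test, blue circles mark genes whose KO and WT arrays separated in both treatments, and the star marks Apobec1 at 0.21.

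Of 19 measured genes of the circadian clock, the transcription loop that gives cells a daily rhythm, 0 passed the test in limma's additive model. At an unadjusted p under 0.05, 4 were higher in KO kidneys and 7 lower, beside 4.86% and 5.14% of all genes. Per2, a repressor of the clock, gave 7.39, 8.20 and 7.29 in WT control, 6.51, 6.62 and 6.74 in KO control, 7.87, 8.38 and 7.87 in WT AKI and 6.89, 5.94 and 7.30 in KO AKI. Its groups did not overlap in either treatment, and its difference was -1.17 (standard error 0.23, adjusted p = 0.108). Usp2, a deubiquitinase with a daily rhythm, also separated in both, with -1.90 (adjusted p = 0.309) and with -1.29 without KO AKI replicate 2, where it gave 6.12 against 9.85 and 10.29 on the other KO AKI arrays.

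Arntl, which encodes BMAL1, gave 4.62, 5.55 and 5.53 in WT control against 8.42, 7.63 and 8.11 in KO control, and 5.77, 7.17 and 6.78 in WT AKI against 6.60, 8.88 and 7.65 in KO AKI. The groups were apart in saline and overlapped after cisplatin, and the additive difference was 1.98 (standard error 0.41, adjusted p = 0.135). All Arntl signals of WT control lay below the background of their arrays (6.15, 6.22 and 6.32), as did WT AKI replicate 1 (6.32). The size of the Arntl difference is therefore read partly within background. After cisplatin the difference of Arntl was 1.14, or 0.55 without KO AKI replicate 2. Clock, its partner, separated in both treatments with 0.58 (adjusted p = 0.314), and Npas2, which can take the place of Clock, gave 1.83 in saline and 0.38 after cisplatin. Dbp, an output gene, gave -1.86 in saline and -1.87 after cisplatin (adjusted p = 0.353), the latter becoming -0.50 without that array. Ciart, a repressor, gave -2.92 and -0.13, and Nr1d1, also a repressor, had an additive difference of 0.75 (adjusted p = 0.276). Npas2 was above background on 2 of 12 arrays and Ciart on 3. The hour at which kidneys were taken is not given in the sources used here.

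**Figure D5:**
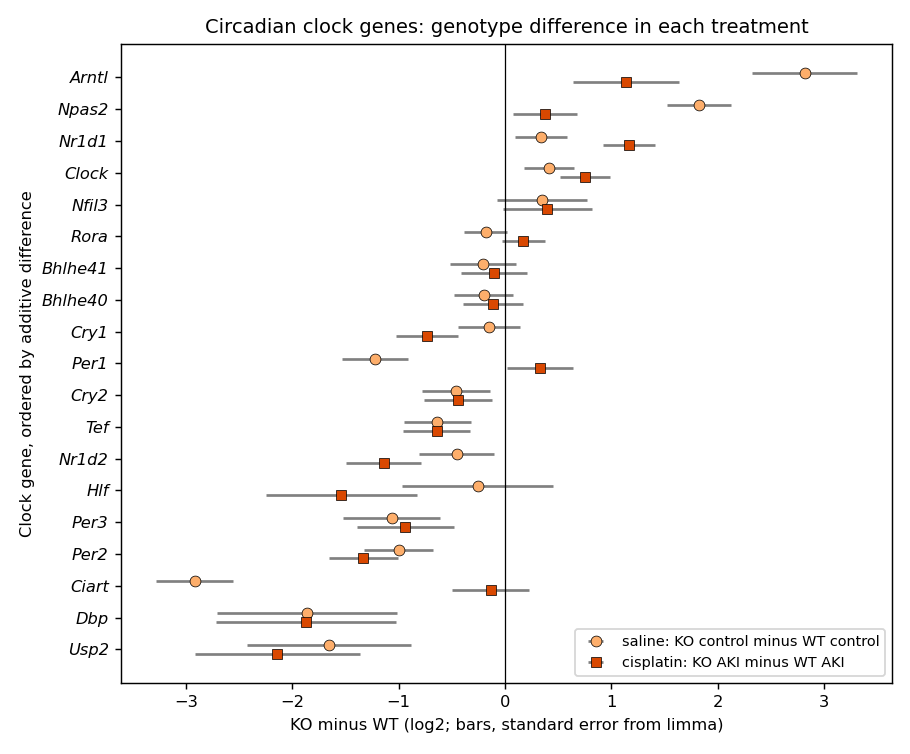
KO minus WT log2 difference (horizontal axis) of the 19 measured clock genes (vertical axis) in saline (circles) and after cisplatin (squares), with bars for the standard error from limma. Arntl and Npas2 lie right of 0 and Dbp, Usp2 and Per2 left of 0 in both treatments, and Ciart shows -2.92 in saline beside -0.13 after cisplatin.

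The remaining lists held no called member. NRF2 targets, genes of the oxidative stress response, had additive differences above 0 for 14 of 14 measured, with a median of 0.05 in saline and 1.25 after cisplatin, or 0.79 without KO AKI replicate 2. The mean log2 signal of the list was 14.5 on that array against 12.3 and 13.8 on the other KO AKI arrays. Nqo1 gave 1.39 in saline and 1.35 after cisplatin (adjusted p = 0.180), and Srxn1, sulfiredoxin, gave 0.77 and 3.81, with an additive difference of 2.29 that was 1.33 without that array. The 11 kidney genes raised by androgen all had differences below 0, with a median of -0.45 in saline and -1.28 after cisplatin, or -0.70 without that array, where the mean log2 signal of the list was 11.1 against 13.5 and 11.9. The part of the proximal tubule markers in these values was not tested. Kap, an androgen-regulated kidney protein, gave -0.64 (adjusted p = 0.494), of which -1.28 was measured after cisplatin. The 8 endothelial markers all had differences above 0, with a median of 0.98 in saline and 0.04 after cisplatin, Cdh5, the cadherin of endothelial junctions, giving 0.86 (adjusted p = 0.277) in the additive model.

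Partners and targets of APOBEC1 showed no shared genotype difference past the threshold. Among 12 measured cofactors and RNA editing genes 0 passed, with 1 at an unadjusted p under 0.05 (10% of all genes were), and the median was 0.04. A1cf gave -0.51 (adjusted p = 0.751), which turned to 0.026 when KO AKI replicate 2 was left out, and Rbm47 gave 0.09 (adjusted p = 0.874). Among 23 measured transcripts known in mouse tissues as edited or bound by APOBEC1, 0 passed and 3 had an unadjusted p under 0.05, beside 10% of all genes. The median of the 23 was 0.14, or -0.01 without KO AKI replicate 2, where 13 were lower and 10 higher. Rrbp1, a ribosome-binding protein of the endoplasmic reticulum, was 1 of the 23, with 0.44 (adjusted p = 0.425).

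Lists of other cell types also had 0 called members. The 14 proximal tubule markers had the medians given with the transporters. The 9 markers of Henle's loop and the distal tubule had a median of 0.26 in saline and -1.18 after cisplatin, or -0.29 after cisplatin without KO AKI replicate 2. Tubule injury genes had a median of -0.45 in saline and 1.37 after cisplatin over 10 genes, or 1.06 without that array. The 11 markers of macrophages and monocytes had medians of -0.17 and 0.62, the latter being 1.0 without it. The 7 neutrophil markers had medians of -0.18 and 0.54, and without it the latter was -0.16. The mean log2 signal of the neutrophil list was 6.35 on that array against 4.56 and 4.78 on the other KO AKI arrays. All 7 neutrophil markers were above background on 0 arrays of WT control, KO control and WT AKI, and 4 of them on 0 arrays of KO AKI. The additive medians were -0.05 for 9 markers of the collecting duct, 0.21 for 5 of podocytes, 0.03 for 9 of T cells and -0.04 for 14 of natural killer cells, which were above background on 0 arrays. Of the 9 T cell markers, 7 to 9 were above background on 0 arrays of a given group. Over 19 genes of insulin signaling the medians were 0.28 in saline and 0.07 after cisplatin, and over 15 interferon-stimulated genes 0.21 and -0.39.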

How the data were processed

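Clariom S arrays measured the kidney RNA of 12 mice, 1 array a mouse and 3 in each of 4 groups, with genotype, treatment and replicate number taken from the sample labels. The authors deposited log2 signals of probe sets, for which the submitters' processing notes name the software Transcriptome Analysis Console. The version, the background correction and the normalization are not given in the sources used here, and the values were used without further scaling. Array medians ran from 5.79 to 6.00.

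Of 28846 entries 22206 are not array controls, 19572 carry 1 gene symbol and 2634 carry none. Where a gene had more than 1 probe set (55 genes), the one with the highest mean was taken. Chromosomes and distances come from RefSeq genes of the assembly GRCm38.p6, matched to the symbols.

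Genes were tested with limma 3.58.1 in R 4.3.3 (lmFit and eBayes, 9 residual and 5.19 prior degrees of freedom) on genotype plus treatment, with Benjamini-Hochberg adjustment over 19505 genes. A model with 4 group means gave the differences within each treatment and their interaction. Single genes were also tested by exact permutation of the genotype labels within treatments, two-sided. Where a group lay above background on 0 arrays, the fold is a bound against its mean background. The fits were tested on simulated data.

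Genes were named by a rule that took Apobec1, the called genes that separate in both treatments with the largest differences, called members of each list, and called genes with the smallest interaction p or near Apobec1. Other genes in the text are list members, genes with an adjusted p under 0.1 or genes chosen after their values were seen. The question, the gene lists and the rule were chosen with earlier results of these data known, and several lists were written around a called gene, so no list was tested. Alternatives were a replicate block, 4 group means, quantile normalization, median centring, array weights, a background filter, the mean of probe sets, a trend with robust fitting, each array left out, other thresholds and, added after the data were seen, list medians without KO AKI replicate 2. No batch is named in the labels or the methods. The number of arrays limits the precision, and nothing beyond the labels states that the mice of a group were independent, so p-values measure the spread between these samples.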

Additional observations from a re-analysis of the deposited data

Results flagged for a closer look

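Probe sets without a gene symbol, which stood outside the test of named genes, were fitted together with all 22206 probe sets. Of 2634 such probe sets 2 passed an adjusted p of 0.05 in limma, and 39 separated the genotypes the same way in both treatments. The signal of TC1100001640.mm.2 was lower in KO kidneys, with a log2 difference of -1.22 (standard error 0.19, adjusted p = 0.0302). That of TC0900001049.mm.2 was higher, with a log2 difference of 1.77 (standard error 0.28, adjusted p = 0.0304). Each was above background on all 12 arrays, and their genes are unnamed here.

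A1cf, an RNA-binding partner of APOBEC1, and Slc7a13, a proximal tubule transporter of acidic amino acids and cystine, had opposite genotype differences in the treatments. All KO arrays lay above the WT arrays in saline and all lay below them after cisplatin. For A1cf the log2 difference was 0.57 in saline and -1.58 after cisplatin, and the interaction was -2.15 (adjusted p = 0.371 from limma). For Slc7a13 these were 0.60, -5.82 and -6.42 (adjusted p = 0.277 from limma). The KO AKI arrays gave 14.79, 6.41 and 9.92 for Slc7a13. Without KO AKI replicate 2 its additive difference went from -2.61 to -1.37 and that of A1cf from -0.51 to 0.026. The differences after cisplatin were then -3.84 for Slc7a13 and -0.65 for A1cf, and the interactions were -4.44 and -1.22. Neither interaction passed the threshold, and over all named genes 251 (1.29%) separated in opposite ways.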

How the results depend on the processing

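The count of 12 called genes, 11 of them separated in both treatments, was the same under quantile normalization, median centring, a filter for genes above background on at least 3 arrays (9686 genes) and the mean of probe sets. A trend with robust fitting called 11. The model with 4 group means called 20, of which 15 separated in both, and array weights gave 23 and 21. At an adjusted p under 0.1, added after the data were seen, 25 and 24 genes were counted, and the thresholds of an unadjusted p under 0.01 and a 2-fold difference gave 85. Leaving out 1 array gave 5 to 28 calls, of which 5 to 28 separated in both treatments, and the 28 came without KO AKI replicate 1. The cause of these shifts was not tested. With the replicate number as a block there were 5 calls, all of them separated in both treatments and among the 12. Same-numbered arrays of the 2 genotypes in a treatment had deviations that correlated between -0.11 and 0.09, so the numbers were not taken to pair the mice. Over the 12 called genes and 20 alternatives, 171 of 240 values stayed past the threshold, 69 did not and 0 changed sign. Without single arrays the difference of Apobec1 ran from -0.029 (without KO AKI replicate 1) to 0.51 and that of A1cf from -0.69 to 0.026 (without KO AKI replicate 2). The alternative scalings moved the median of all genes by under 0.1. Signal over background limits what could be seen, since 9036 genes lay above background on 0 arrays and a difference in them may not have been detectable.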
